A study of Mus musculus with 12 samples.

Results

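The genes described here are the 78 cytosolic ribosomal protein genes counted in whole mouse retina after photoreceptor-specific deletion of Otx2, out of 54146 genes in the count files. A gene was a member when it was protein-coding, its mouse symbol was Rpl or Rps followed by a number and at most one further letter, or was Rplp0, Rplp1, Rplp2 or Rpsa, and at least 10 counts were present in at least 3 of the 12 libraries. The symbols of 80 protein-coding genes had this form. Rpl10l, with 0 counts in every library, and Rpl39l, with at most 9, did not reach the count limit. Of the 78 members, 31 belong to the small (40S) subunit and 47 to the large (60S) subunit, 4 are X-linked, and all 78 passed edgeR's filter on low counts.

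Ribosomal proteins and ribosomal RNAs together form the particle that translates every mRNA of the cell. The proteins are made in near equal numbers per ribosome, so their genes are usually expressed together, and their mRNAs typically begin with a C followed by a run of pyrimidines (the TOP element) through which the mTOR pathway controls their translation. Each of these genes also has many processed pseudogenes, intronless copies of its mRNA elsewhere in the genome, and a short read from the gene may match several of them. In photoreceptors ribosomes supply the constant synthesis of outer segment proteins.

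Mice of the Crx-CreERT2;Otx2 flox/flox line, kept on a 129/SV background, carry a tamoxifen-activated Cre under the photoreceptor and precursor gene Crx and lose 1 coding exon of Otx2 when Cre is active. The 3 P30 mice (1 to 3) are labelled as controls and, by the study's methods, were taken at the age of injection (0 d), and the cKO mice received a single tamoxifen injection at P30 and were taken 2 d later at P32 (mice 4 to 6), 4 d later at P34 (mice 7 to 9) or 8 d later at P38 (mice 10 to 12). Age, tamoxifen and deletion therefore change together between the groups. RNA came from whole retina and, by the study's account, included RNA of the retinal pigment epithelium. The study does not give the number of retinas per mouse. In such bulk RNA fewer cells of a type and less RNA per cell cannot be told apart.

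Gene counts per library ranged from 29701483 to 60145034, of which 98615 to 242987 lay on the members. Otx2 itself gave 293, 328 and 315 CPM (counts relative to library size, scaled to a common total with edgeR's TMM method) in the P30 mice and 307 to 377 CPM in the cKO mice, but these counts cover all exons and cannot show the loss of 1 exon. The 5 rod markers summed to 59283 to 65439 CPM at P30, 53955 to 58700 at P32, 67290 to 90412 at P34 and 65887 to 99676 at P38, so that all 6 mice at P34 and P38 lay above all 6 at P30 and P32. P32 mouse 4 stood apart from the other libraries. It had the most reads without a unique position (32.2% against 23.7 to 29.3%), its genes with short transcripts (under 1000 bases) were 0.96 higher on the log2 scale than those with long ones (over 5000 bases) relative to the mean library, against −0.32 to 0.10 in the others, and its summed lens markers (36994 CPM) and blood markers (167 CPM) were the highest of the 12. By Xist the P30 mice were all female, while 5 of the 9 cKO mice were male, mouse 4 among them. The part of these properties in the members' values was not tested.

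The start sites of 6 members are shown because they carry, or lack, the pyrimidine run of the TOP element. Sequences are from RefSeq (GRCm38.p6) on the transcribed strand, 25 bases before the listed start and 25 from it on, with the longest run of at least 7 C or T that begins with C in capitals.
Rps6, chr4:86857343-86857392, minus strand: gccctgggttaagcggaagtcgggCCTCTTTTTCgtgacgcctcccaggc
Rps27, chr3:90213624-90213673, minus strand: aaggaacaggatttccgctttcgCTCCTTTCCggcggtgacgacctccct
Rpl4, chr9:64173362-64173411, plus strand: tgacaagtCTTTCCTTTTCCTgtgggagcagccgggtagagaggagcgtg
Rpl13a, chr7:45128721-45128770, minus strand: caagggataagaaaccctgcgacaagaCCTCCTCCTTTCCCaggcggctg
Rpl18, chr7:45718046-45718095, plus strand: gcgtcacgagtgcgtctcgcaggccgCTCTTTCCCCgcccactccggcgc
Rps3, chr7:99483685-99483734, minus strand: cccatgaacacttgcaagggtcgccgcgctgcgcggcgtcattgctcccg
In Rps6, Rps27, Rpl13a and Rpl18 the run begins 1 or 2 bases from the listed start, in Rpl4 it lies upstream of it, and the Rps3 window holds none. RefSeq promoters were matched for 58 of the 78 members, and 37 of these 58 (63.8%) had such a run beginning within 25 bases of a listed start, against 27.6% of all 27025 genes in the table. Over promoters rather than genes the shares were 41 of 70 (58.6%) and 24.6% of 32851.

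In the window from 250 bases before to 50 after the start, searched on both strands, CCGGAAG, the core bound by ETS factors such as GABPA, was present in 24 of the 58 members (41.4%) and in 9.93% of all genes. The motif TCTCGCGAG was present in 7 members (12.1%) and in 0.762% of all genes. GCCCCGCCC, a GC box, was found in 8 members (13.8%) against 12.4%, and TATAA in 16 (27.6%) against 28.0%. None of these 4 motifs contains another, and a match describes the letters only. Promoters of the other 20 members were not analysed here.

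The members together took 0.295 to 0.653% of a library's gene counts, and none was among the 10 most counted genes of any library. The share was 0.404, 0.324 and 0.418% in P30 mice 1, 2 and 3. It was 0.653, 0.378 and 0.334% in P32 mice 4, 5 and 6, and 0.394, 0.316 and 0.332% in P34 mice 7, 8 and 9. In P38 mice 10, 11 and 12 it was 0.401, 0.295 and 0.351%. Mouse 4 lay far above all others, and apart from it the 4 ages overlapped. The means were 0.382% ± 0.0508 (SD, n = 3) at P30, 0.455% ± 0.173 (SD, n = 3) at P32, 0.347% ± 0.0415 (SD, n = 3) at P34 and 0.349% ± 0.0530 (SD, n = 3) at P38. Without mouse 4 the mean at P32 was 0.356%, and the 8 other cKO mice spanned 0.295 to 0.401%.

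**Figure D1:**
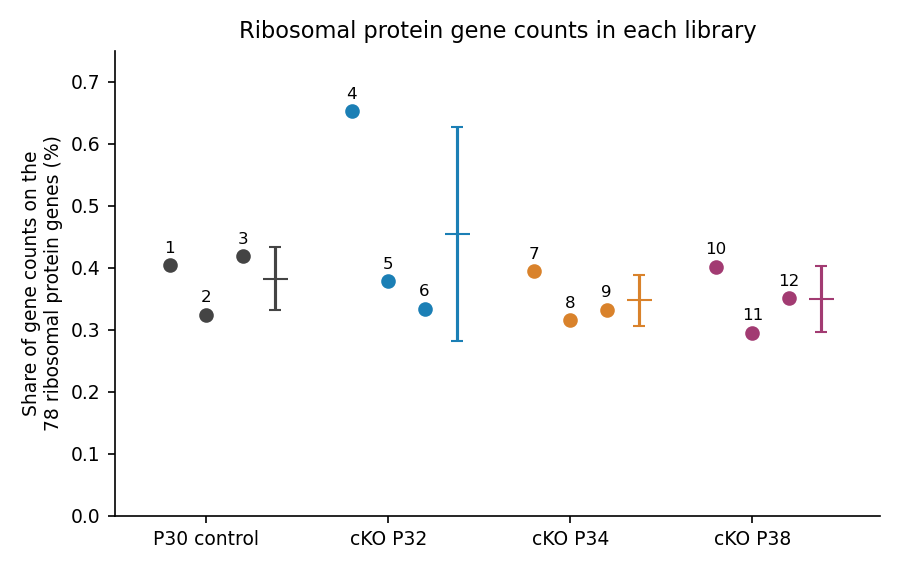
Share of gene counts on the 78 ribosomal protein genes (%, y axis) in each library, by age (x axis), with mouse numbers above the points and the mean ± SD of each group (n = 3) beside them. Mouse 4, at 0.653%, is the highest, and the other 11 libraries lie between 0.295 and 0.418%.

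Both subunits contributed to these counts in nearly fixed proportion. Small subunit members took 44.1 to 47.0% of the members' counts, with the lowest share in P34 mouse 9 and the highest in P32 mouse 4. Of the 78 members, 64 had their highest CPM in mouse 4 and 29 had their lowest in P38 mouse 11. Mouse 4 was above a member's own mean over the 12 mice for 74 of 78 members, mouse 3 for 59 and mouse 1 for 53, while mouse 11 was above it for 8. Rps2, Rpl36, Rpl13 and Rps10 departed most in mouse 4. Rpl29, Rps15a, Rpl30 and Rpl3l were its 4 members not above their own mean.

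**Figure D2:**
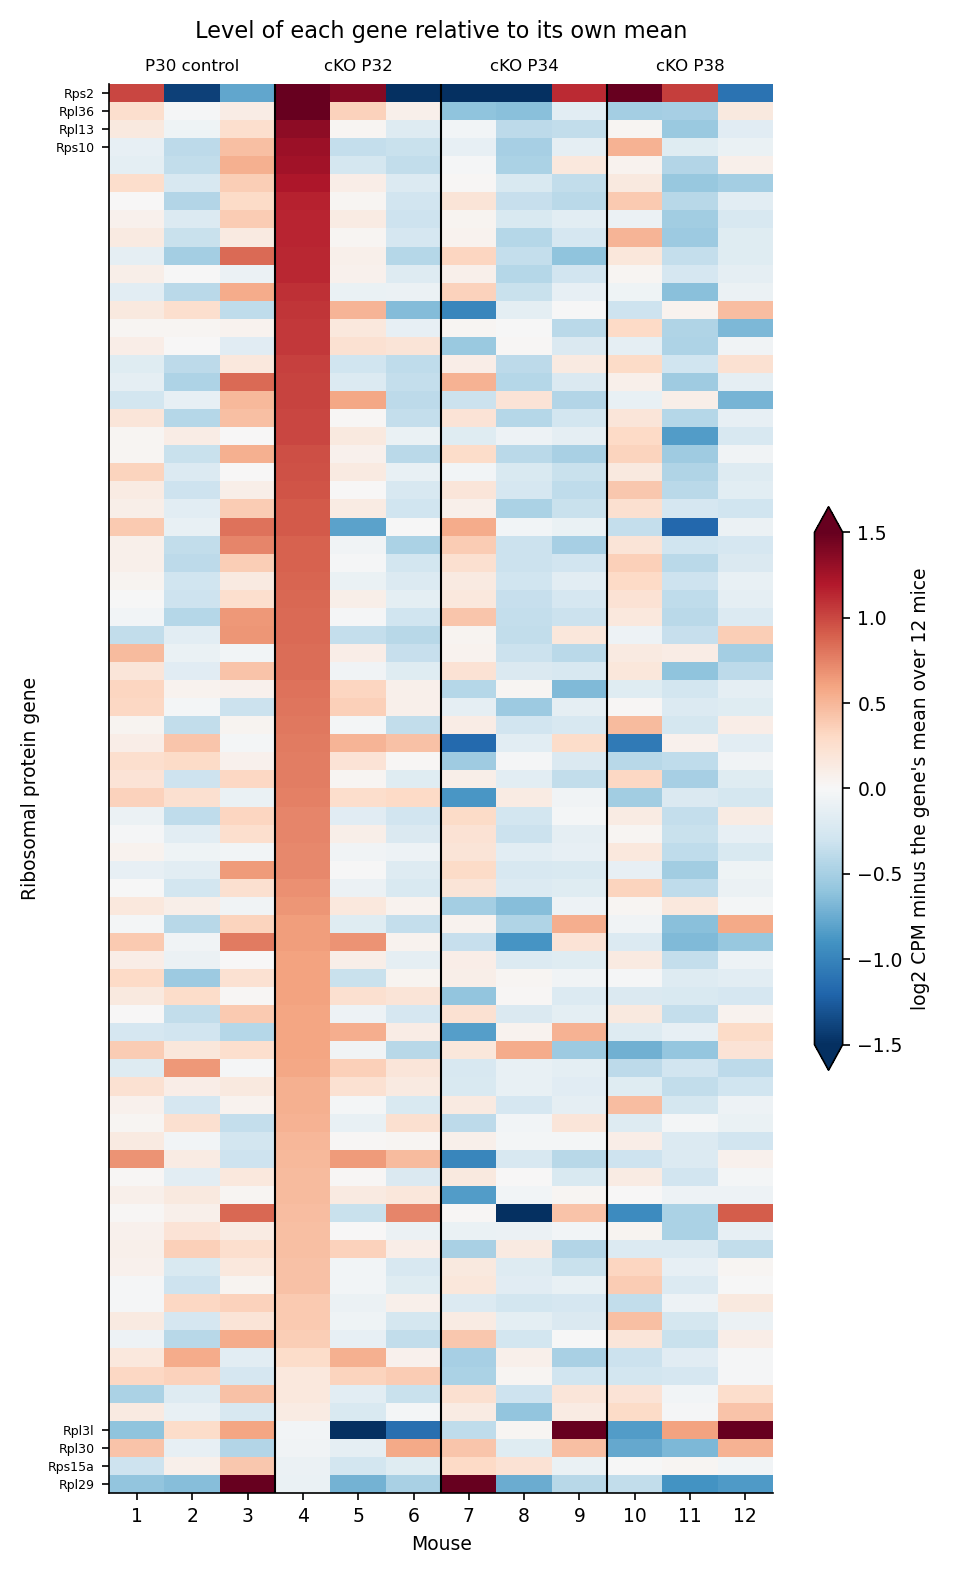
log2 CPM of each of the 78 genes (rows, ordered by their value in mouse 4, with the first 4 and last 4 named) minus the gene's own mean over the 12 mice (columns, grouped by age), on a color scale clipped at 1.5 in either direction. The column of P32 mouse 4 is above the mean for 74 of 78 genes, and rows such as Rps2, Rpl29 and Rpl3l change between mice within an age.

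The first question was whether the family as a whole differed between the cKO ages and P30. No member passed the test in any of these comparisons. The test was edgeR's quasi-likelihood test on 18628 genes, and a gene was called when its p, adjusted by Benjamini-Hochberg, did not exceed 0.05 and its log2 fold change reached 0.5 in either direction.

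At P32, 0 of 78 members were called by edgeR (0% of all genes tested) or by DESeq2 (0.134% of all genes). The median log2 fold change of the members was 0.21, against −0.01 over all genes, and 70 members had a positive value and 8 a negative one. At an unadjusted p of at most 0.05, 2 members were higher, as were 2.55% of all genes, and DESeq2 gave 1. By edgeR the number was 0 without mouse 4 (0.853% of all genes), 8 without mouse 6 (7.27%), 0 without mouse 2 or 3, and 1 or 2 without any other mouse. The members higher by edgeR were Rps6 (log2 fold change 0.74, SE 0.33, edgeR adjusted p = 0.698) and Rpl12 (0.57, SE 0.25, edgeR adjusted p = 0.698), the latter a protein at the base of the ribosomal stalk. Without mouse 4 the median of the members was −0.10, with 20 positive and 58 negative values, so the sign of the median at P32 rested on that library, and Rpl12 was at 0.23 (SE 0.21). With all mice the median was 0.06 with an offset for transcript length, 0.10 with sex as a covariate split at 100 CPM of Xist, and −0.0086 with the split at 1 CPM, which misplaced 3 males.

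At P34, 0 of 78 members were called by edgeR (0.660% of all genes) or by DESeq2 (1.98%). The median log2 fold change was −0.19, against 0.00 over all genes, with 11 positive and 67 negative values. At an unadjusted p of at most 0.05, 9 members were lower by either tool (7.06% of all genes by edgeR) and none higher. By edgeR that number was 2 without mouse 7 (4.99% of all genes), 10 without mouse 4 (8.29%), 8 without mouse 6 or 8, and 3 to 5 without any other mouse. The median was −0.06 without mouse 3, −0.11 without mouse 8, −0.28 without mouse 2 and −0.29 without mouse 7. The most negative values were those of Rpl24 (−0.74, SE 0.30, edgeR adjusted p = 0.422) and Rplp0 (−0.69, SE 0.28, edgeR adjusted p = 0.422).

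At P38, 0 of 78 members were called by edgeR (0% of all genes) or by DESeq2 (0.242%). The median was −0.18, against −0.01 over all genes, with 18 positive and 60 negative values. At an unadjusted p of at most 0.05, 5 members were lower by edgeR (3.82% of all genes) and 6 by DESeq2. Without mouse 10 or 11, 2 were lower by edgeR (2.43% and 3.09% of all genes), and the median was −0.07 without mouse 3 and −0.08 without mouse 11. The 5 were Rpl5, Rplp0, Rpl11, Rps25 and Rpl9, and their edgeR adjusted p were 0.684 for Rpl5 and 0.847 for the other 4. Rpl29 had the most negative value (−2.31, SE 1.07), which was −0.074 without P30 mouse 3. The summed rod markers were higher at P34 and P38 than in every P30 mouse, and their part in the members' medians was not tested. With sex as a covariate (split at 100 CPM) the members' medians were −0.41 at P34 and −0.35 at P38, with the split at 1 CPM they were −0.38 and −0.18, and with the length offset they were −0.13 and −0.11. In these fits 0 members were called.

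With all 9 cKO mice against the P30 mice, 0 of 78 members were called by edgeR (0.0537% of all genes) or by DESeq2 (0.247%), and none reached an unadjusted p of 0.05 by edgeR or by DESeq2. The median was −0.02, against 0.01 over all genes, with 36 positive and 42 negative values. Without mouse 4 it was −0.15, with 11 positive and 67 negative values. These comparisons share the P30 mice.

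Among the cKO ages, P34 and P38 were set against P32 and against each other. At P34 against P32 the median of the members was −0.45 (−0.02 over all genes), 70 of 78 values were negative, and 0 were called by edgeR (0.242% of all genes). At an unadjusted p of at most 0.05, 20 members were lower, against 13.3% of all genes. At P38 against P32 the median was −0.39 (−0.02 over all genes), 71 values were negative, 0 were called (0% of all genes), and 17 members were lower at the unadjusted limit against 10.9% of all genes. At P38 against P34 the median was 0.03, 0 members were called (0.199% of all genes), and none reached the unadjusted limit (1 by DESeq2, which called 0 members and 0.773% of all genes).

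Both differences from P32 were smaller without mouse 4. The medians became −0.032 at P34 and −0.061 at P38, and 9 and 6 members were then lower at the unadjusted limit, against 7.92% and 5.96% of all genes in the same fit. With an offset for transcript length and all mice, the medians were −0.21 and −0.17, and 10 and 9 members were lower at that limit (12.3% and 9.76% of all genes). DESeq2 with all mice called 6 members lower at P34 against P32 (Rpl36, Rpl24, Rpl12, Rps12, Rpl27 and Rpl9) and 4 at P38 against P32 (Rplp0, Rps13, Rpl5 and Rpl9), while it called 7.55% and 5.00% of all genes tested in either direction. With mouse 6 left out instead of mouse 4, edgeR called 13 and 8 members, all lower, beside 14.3% and 10.2% of all genes. The small and large subunit members gave like medians, −0.49 and −0.37 at P34 and −0.39 and −0.40 at P38.

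**Figure D3:**
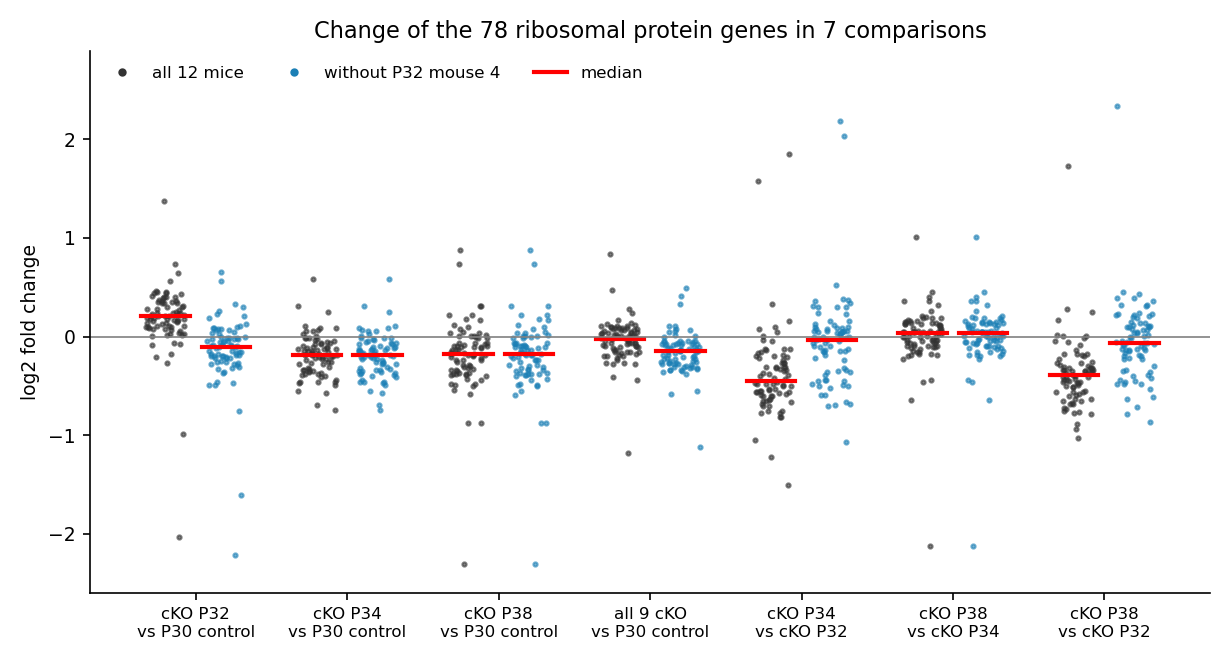
log2 fold change (y axis) of the 78 genes in each of the 7 comparisons (x axis), with 1 point per gene, for all 12 mice (dark) and without P32 mouse 4 (blue), and the median as a red line. The medians of 0.21, −0.45 and −0.39 in the comparisons with P32 become −0.10, −0.032 and −0.061 without that mouse.

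Among small subunit members, Rps6 encodes the substrate of the S6 kinases. Phosphorylation of that protein is a readout of mTOR activity, which counts of the mRNA do not give. The CPM of Rps6 were 0.54, 0.52 and 0.48 in P30 mice 1 to 3, and 0.96, 0.93 and 0.69 at P32. They were 0.36, 0.66 and 0.91 at P34 and 0.56, 0.59 and 0.78 at P38. All 3 P32 mice and all 3 P38 mice lay above the P30 mice, and the P34 mice spanned the P30 range. These values rest on 13 to 36 counts per library. The edgeR log2 fold change at P32 without mouse 4 was 0.65 (SE 0.37).

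Rpsa, the laminin receptor precursor, had 4.63, 4.36 and 4.10 CPM at P30. In mouse 4 it had 9.56 CPM, and in the other 8 cKO mice 3.23 to 4.58 CPM, so only mouse 4 stood clear of the P30 range on the upper side. Rps27a, made as a fusion with ubiquitin, had 3.39 to 3.93 CPM at P30 and 2.24 to 3.18 CPM at P34, with no overlap. Its log2 fold change at P34 was −0.45 (SE 0.23, edgeR adjusted p = 0.527) and at P38 −0.48 (SE 0.23, edgeR adjusted p = 0.847), so neither passed the test.

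Among large subunit members, Rpl5 and Rpl11 carry the 5S RNA into the ribosome and, outside it, bind Mdm2, the ubiquitin ligase of p53. Rpl5 (chromosome 5 of GRCm38, 107900502 to 107909005) had the smallest edgeR p of the members at P34 and P38 against both P30 and P32, and was singled out after its values were seen. It had 34.7, 31.7 and 32.7 CPM at P30 and 42.8, 34.7 and 32.4 CPM at P32. It had 25.3, 27.3 and 26.2 CPM at P34, and at P38 it had 25.998, 22.998 and 24.1 CPM. All 6 mice at P34 and P38 were below all 6 mice at P30 and P32. The log2 fold change against P30 was −0.33 at P34 (SE 0.11, edgeR adjusted p = 0.315) and −0.44 at P38 (SE 0.11, edgeR adjusted p = 0.684), both under the fold limit. Against P32 it was −0.48 at P34 (SE 0.11, edgeR adjusted p = 0.0948) and −0.59 at P38 (SE 0.11, edgeR adjusted p = 0.114). Without mouse 4 these were −0.35 and −0.46. The summed rod markers separated the same mice in the opposite direction, and their part in the Rpl5 values was not tested.

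Rpl11 had 2.85 to 3.47 CPM at P30 and 2.10 to 2.35 CPM at P38, again without overlap, while at P34 it had 1.93, 2.99 and 2.00 CPM and overlapped with P30. Of the 50-base windows of the Rpl5 mRNA, 50 bases being the length of the reads, 51.5% occurred in no other annotated gene, and 14 other genes shared the rest.

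The stalk that binds the elongation factors is built from Rplp0, Rplp1 and Rplp2. Rplp0 (chromosome 5, 115559467 to 115563727) had 64.0, 47.3 and 84.2 CPM at P30 and 75.3, 78.2 and 50.9 CPM at P32. It had 38.4, 26.4 and 56.3 CPM at P34, and at P38 it had 42.3, 30.9 and 33.0 CPM. The 3 P38 mice lay below all P30 and P32 mice, and P34 mouse 9 lay within the P30 range. Its log2 fold change was −0.88 at P38 against P30 (SE 0.28, edgeR adjusted p = 0.847) and −0.94 against P32 (SE 0.28, edgeR adjusted p = 0.118). Its processed pseudogene Gm8730 shares 357 of the 1309 windows in the Rplp0 mRNA.

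Gm8730 had 5.85, 4.18 and 7.34 CPM at P30 and 13.7, 5.19 and 4.53 CPM at P32. It had 10.9, 8.84 and 3.96 CPM at P34, and at P38 it had 12.9, 9.61 and 9.16 CPM. In each of the 5 mice with the lowest Rplp0 (8, 11, 12, 7 and 10) Gm8730 was above every P30 mouse, and in P34 mouse 9, with 56.3 CPM of Rplp0, it was below them. Mouse 4 was high in both (75.3 CPM of Rplp0). The part of this copy in the Rplp0 values was not tested.

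Rplp1, the member with the highest level per length (273 CPM per kb of exon), had 115, 100.1 and 146 CPM at P30, 99.8 to 143 CPM at P34 and 106 to 160 CPM at P38, so that these ages overlapped. Its log2 fold change at P38 against P30 was 0.21 (SE 0.33). Rplp2 had 20.5 to 38.4 CPM at P30, 63.9 CPM in mouse 4 and 19.1 to 29.7 CPM in the other 8 cKO mice.

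The X-linked members are Rps4x, Rpl10, Rpl36a and Rpl39. Rps4x had 33.4 to 41.6 CPM at P30 and 33.3 to 57.6 CPM in the cKO mice, and Rpl39, near the exit tunnel of the ribosome, had 18.02 to 27.4 and 14.3 to 49.0 CPM. Rpl36a had 2.05 to 3.18 and 1.76 to 4.5 CPM. Rpl10, which joins the large subunit last, had 2.702 to 4.10 and 2.32 to 4.19 CPM. The cKO mice spanned the P30 range in all 4, and their log2 fold changes in all 9 cKO mice were 0.08 for Rps4x, −0.18 for Rpl10, 0.04 for Rpl36a and −0.10 for Rpl39, with SE of 0.17 to 0.31.

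Rpl36, also of the large subunit, had the most negative value at P38 against P32 (−1.03, SE 0.37, edgeR adjusted p = 0.147). It had 0.79 to 0.95 CPM at P30, 2.25, 1.01 and 0.84 CPM at P32, 0.51 to 0.71 CPM at P34 and 0.56 to 0.88 CPM at P38. The P34 mice lay below the P30 mice, and mouse 4 far above all others. Without it the value was −0.48 (SE 0.30). Positive values were given by Rpl27 and Rpl28, with 0.45 (SE 0.21) for Rpl27 at P38 against P34 and 0.28 (SE 0.22) for Rpl28 at P38 against P32.

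The steadiest members relative to the rest of the family were Rpl8, Rpl18 and Rps3. The SD over the 12 mice of their log2 CPM, after subtracting the median member of the same library, was 0.079, 0.10 and 0.12. Rpl8, a protein of the peptidyl transferase center, had 369.5, 294 and 395 CPM at P30 and 661 CPM in mouse 4, and 291 to 445 CPM in the other cKO mice. Rps3, at the mRNA entry channel, had 312 to 445 CPM at P30 and 290.0 to 607 CPM in the cKO mice.

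Rps2, a small subunit protein near the mRNA entry channel, and Rpl29, a small basic protein of the large subunit, lay at separate levels in mice of the same age. Rps2 (chromosome 17, 24718116 to 24721929) had 16.0, 3.03 and 4.66 CPM in P30 mice 1, 2 and 3, and 38.4, 20.8 and 2.76 CPM at P32. It had 2.59, 2.06 and 17.4 CPM at P34, and at P38 it had 23.6, 16.4 and 3.7 CPM. Mice 1, 4, 5, 9, 10 and 11 had at least 16.0 CPM and the other 6 at most 4.66 CPM, with both levels present at each age. Its log2 fold change in all 9 cKO mice was 0.84 with an SE of 0.88, so the difference was smaller than its own error.

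Rpl29 (chromosome 9, 106429454 to 106431568) had 0.90, 0.87 and 10.9 CPM at P30 and 9.19, 0.81 and 1.02 CPM at P34. It had 0.83 to 1.26 CPM at P32 and 0.73 to 1.04 CPM at P38. Mouse 3 of the P30 group and mouse 7 of the P34 group thus lay far above the other 10. The log2 fold change of −1.18 (SE 0.88) in all 9 cKO mice became 1.05 without mouse 3. Of the 534 windows of the Rpl29 mRNA, 319 also occurred in Uimc1, a protein-coding gene that had 23.3 to 33.2 CPM and was lowest in mouse 7, and 84 genes in all shared windows with it.

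Rpl3l, the form of Rpl3 made in striated muscle, had the lowest level per length of the family (0.173 CPM per kb) on 2 to 23 counts per library. It had 0.14 to 0.33 CPM at P30 and 0.05 to 0.21 CPM at P32. It had 0.17, 0.22 and 0.71 CPM at P34, and at P38 it had 0.12, 0.33 and 0.78 CPM. Mice 9 and 12 were the highest. These were also the mice with the most skeletal muscle marker counts (91.9 and 67.9 CPM in sum, against 5.14 to 46.9 CPM in the other 10), with 3 of 5 markers counted in every library, and the part of muscle RNA in the Rpl3l values was not tested. The mRNA of Rpl3l shares no window with another gene. Rpl3 itself, which holds the peptidyl transferase center in shape, had 4.72 to 7.79 CPM at P30, 5.52 to 7.62 CPM at P32, 3.73 to 5.56 CPM at P34 and 4.22 to 5.22 CPM at P38.

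**Figure D4:**
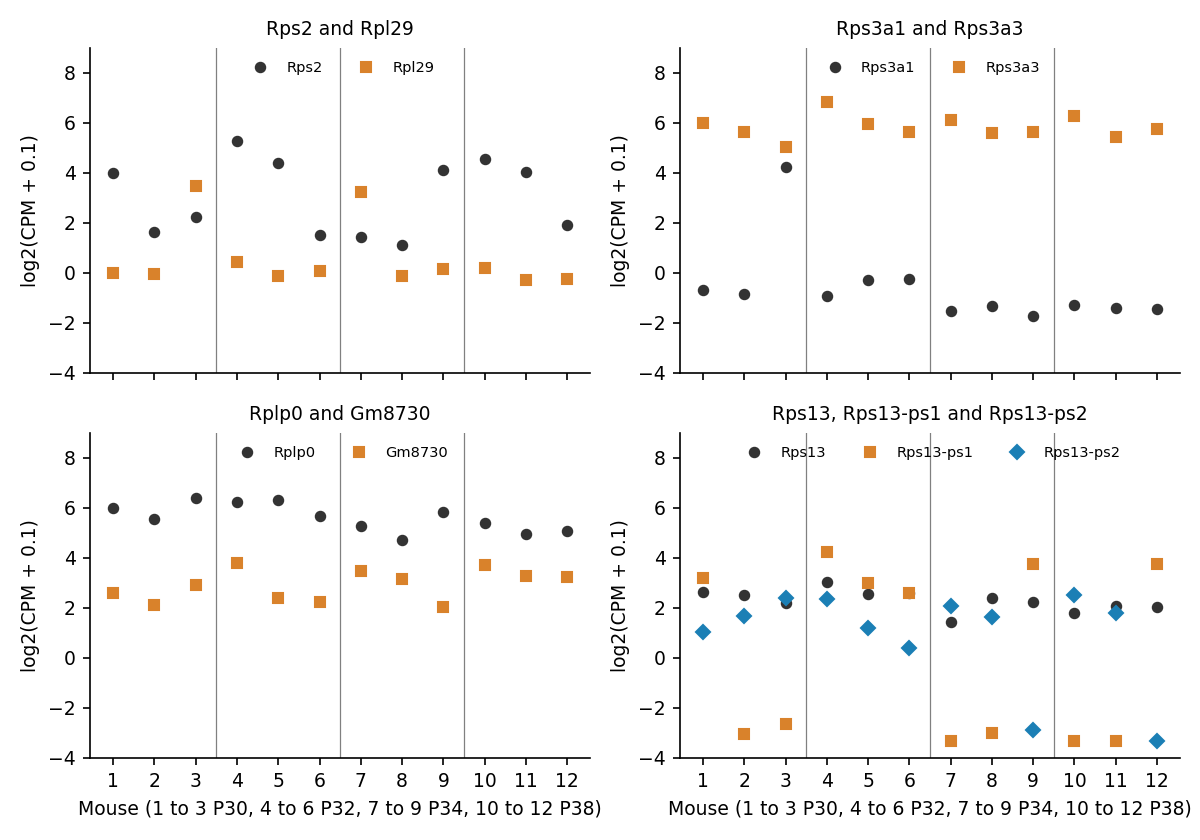
log2(CPM + 0.1) (y axis) in each mouse (x axis, vertical lines between ages) of Rps2 and Rpl29, of Rps3a1 and its processed pseudogene Rps3a3, of Rplp0 and its processed pseudogene Gm8730, and of Rps13 with its processed pseudogenes Rps13-ps1 and Rps13-ps2. Rps2 lies at 16.0 CPM or more in 6 mice and at 4.66 CPM or less in the other 6, and Rps3a1 is above 1 CPM only in mouse 3 (18.7 CPM).

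Rps13 had 2.59 to 8.01 CPM, while its processed pseudogenes were at or near 0 in some mice. Rps13-ps1 had 5.99 to 18.9 CPM in mice 1, 4, 5, 6, 9 and 12 and at most 0.0594 CPM in the other 6, and Rps13-ps2 had at most 0.0338 CPM in mice 9 and 12 and 1.21 to 5.58 CPM in the other 10.

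The levels of the members per kb of exon spanned a range of 1578 times. The highest were Rplp1 (273 CPM per kb), Rpl8 (273) and Rps15 (252), and the lowest Rps16 (0.461), Rps6 (0.419) and Rpl3l (0.173). The median was 8.56 CPM per kb, 6 members were above 100 and 8 below 1. The 5 most counted members took 43.3% of all member counts and the 10 most counted took 61.3%.

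Only reads with 1 position were counted to a gene, so the share of each mRNA that is found nowhere else was computed. Of the 78 members, 76 shared at least 1 window of 50 bases with another annotated gene, the median number of such genes was 10, and the median share of windows found in no other gene was 45.9%. This share ran from 1.35% in Rps27, 7.57% in Rps10 and 7.87% in Rpl10 to 97.0% in Rps3 and 100% in Rpl3l. The 26 members with the lowest shares (at most 27.8%) had a median level of 2.32 CPM per kb, and the 26 with the highest (at least 58.4%) had 21.9 CPM per kb. Spearman's rho between the share and the level was 0.47 over the 78 members, a description across genes, which share libraries and are not replicates. Rps16, with 58.4% of its windows its own and 0.461 CPM per kb, and Rplp1, with 40.0% and 273 CPM per kb, lay far from that order. The genome sequence was not used, so copies outside the annotation were not counted.

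**Figure D5:**
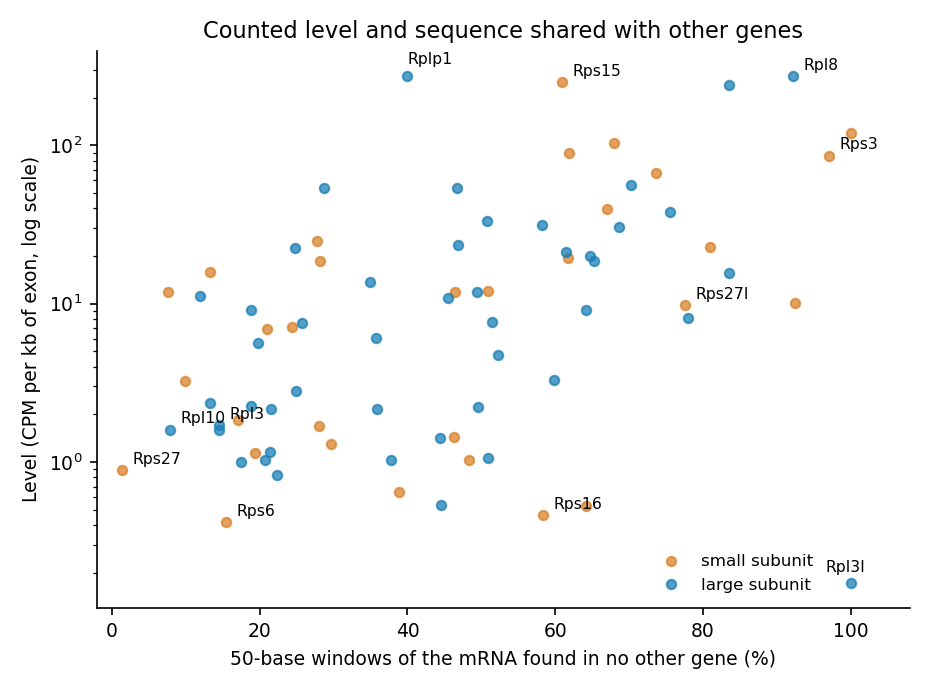
Mean level over the 12 mice in CPM per kb of exon (y axis, log scale) against the share of 50-base windows of the mRNA found in no other annotated gene (%, x axis), with 1 point per gene, colored by subunit. Levels run from 0.173 in Rpl3l to 273 in Rplp1, and Rps27, at 1.35%, lies at 0.890 CPM per kb.

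Rps27 and its paralog Rps27l, proteins of the small subunit with 84 codons each, differed in how much of their sequence other genes share. Their coding sequences, from GENCODE M21 on GRCm38, are shown in full, with the bases of Rps27l that differ from Rps27 in capitals.
Rps27, chr3:90212522-90213651, minus strand: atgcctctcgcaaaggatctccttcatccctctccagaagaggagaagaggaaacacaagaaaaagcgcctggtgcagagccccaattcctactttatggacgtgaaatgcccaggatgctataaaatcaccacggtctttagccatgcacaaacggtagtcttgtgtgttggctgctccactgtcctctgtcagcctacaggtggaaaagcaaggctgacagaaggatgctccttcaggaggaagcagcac
Rps27l, chr9:66946086-66949516, plus strand: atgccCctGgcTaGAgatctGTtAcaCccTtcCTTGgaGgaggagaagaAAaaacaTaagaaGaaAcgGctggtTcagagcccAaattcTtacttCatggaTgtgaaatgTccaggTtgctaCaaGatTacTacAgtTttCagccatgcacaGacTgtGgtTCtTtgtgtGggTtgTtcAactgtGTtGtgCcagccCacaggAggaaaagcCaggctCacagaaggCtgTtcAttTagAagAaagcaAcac
The sequences differ at 60 of 252 bases, and the longest stretch without a difference is 11 bases, so no read of 50 bases within the coding sequence belongs to both. Of the 296 windows of the Rps27 mRNA, however, 292 also occur in the protein-coding gene Rps27rt. Rps27 had 0.63 to 1.38 CPM and Rps27rt 0.426 to 1.55 CPM. Rps27l, of whose windows 77.6% are its own, had 5.53 to 14.6 CPM. Per length, Rps27l lay at 9.80 and Rps27 at 0.890 CPM per kb. Neither passed the test, with log2 fold changes in all 9 cKO mice of −0.02 (SE 0.23) for Rps27 and −0.09 (SE 0.26) for Rps27l.

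The 1040 annotated pseudogenes that share a window with a member held few counts, 4.02 to 5.61% as many as the members, with the highest share in mouse 4. Of ribosomal genes whose symbols lie outside the rule, 10 of 11 were tested and none was called by edgeR. DESeq2 called none either, but gave no p for Rps3a1 in any comparison. Rps3a1, which encodes a small subunit protein, had 0.520, 0.464 and 18.7 CPM in P30 mice 1, 2 and 3 and 0.203 to 0.739 CPM in the cKO mice, so a single P30 mouse carried its counts. Its log2 fold change in all 9 cKO mice was −4.05 (SE 0.78, edgeR adjusted p = 0.109). The processed pseudogene Rps3a3 had 63.9, 49.6 and 33.0 CPM in the same P30 mice and 43.0 to 113 CPM in the cKO mice, and was lowest in mouse 3. Rack1, a protein on the head of the small subunit, had 269 to 482 CPM, highest in mouse 4. Fau, which gave −0.24 (SE 0.43) in all 9 cKO mice, had 0.577 to 3.06 CPM.

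Other genes of translation and of mitochondria were set beside the members. Of the 21 translation factors and other TOP mRNAs, 0 were called in any of the 7 comparisons by edgeR, and at an unadjusted p of at most 0.05 at most 4 passed in 1 direction of a comparison (lower at P38 against P32, as were 10.9% of all genes). DESeq2 called Gas5, Eef1d and Snhg1 lower at P34 and Snhg1 at P38 against P32, where it called 7.55% and 5.00% of all genes in either direction. The median of the 21 genes was 0.12 at P32 against P30, −0.06 at P34 and −0.08 at P38. Their extremes in all 9 cKO mice were Impdh2 (−0.21), Hnrnpa1 (−0.18), Eef2 (0.19) and Eif3f (0.22). Of the 40 ribosome biogenesis genes 0 were called by edgeR, and at most 6 passed the unadjusted limit in 1 direction (lower at P34 against P32, as were 13.3% of all genes). DESeq2 called Nop10 lower in that comparison, beside 7.55% of all genes in either direction. The medians of the 40 genes were 0.03, −0.01 and −0.02, and the extremes were Taf1b and Utp14a (both −0.17), Polr1c (0.15) and Eif6 (0.32). Of the 21 genes of the mTOR pathway and growth control 0 were called by edgeR, with medians of −0.08, 0.06 and 0.06. At most 6 passed the unadjusted limit in 1 direction (higher at P34 and at P38 against P32, as were 13.5% and 12.3% of all genes). At P38 against P32 DESeq2 called Mtor higher and Mycn lower, beside 5.00% of all genes in either direction. The extremes of this list were Gabpa (−0.18), Rps6kb2 (−0.08), Rptor (0.18) and Myc (0.35).

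The 77 tested mitochondrial ribosomal protein genes and the 76 nuclear genes of oxidative phosphorylation (0 called by edgeR in either list) had values near those of the members at P32, with medians of 0.22 and 0.29 against P30. Mrps36 (−0.43), Mrpl23 (−0.27), Mrpl54 (0.22) and Mrpl34 (0.26), and Cox7c (−0.54), Atp5g2 (−0.31), Ndufs5 (0.36) and Cox6a1 (0.55), were their extremes in all 9 cKO mice. Without mouse 4 the medians at P32 were −0.04 and −0.04, those of the translation factors −0.02 and those of the members −0.10. At P34 against P30 the medians of the mitochondrial lists were −0.03 and −0.03 and at P38 −0.05 and −0.05, where the members had −0.19 and −0.18. At the unadjusted limit at most 12 and 6 genes of the mitochondrial lists passed in 1 direction of a comparison (lower at P34 against P32, as were 13.3% of all genes). DESeq2 called Mrps6 lower in that comparison, beside 7.55% of all genes in either direction. The differences between lists were not tested.

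Immediate early genes, which respond to handling, summed to 86.3 to 172 CPM at P30, 248 to 278 CPM at P32, 141 to 184 CPM at P34 and 75.7 to 115 CPM at P38. Their 7 genes had a median log2 fold change of 0.83 at P32 against P30, with 0 called by edgeR and 4 higher at an unadjusted p of 0.05, as were 2.55% of all genes. DESeq2 called Dusp1 (1.08, SE 0.22, DESeq2 adjusted p = 0.00177) and Nr4a1 (0.84, SE 0.20, DESeq2 adjusted p = 0.0326) higher at P32 against P30, and both these and Fos lower at P38 against P32 and against P34. It called 0.134%, 5.00% and 0.773% of all genes in these comparisons. In all 9 cKO mice the extremes were Fosb (−0.06), Ier2 (0.24), Dusp1 (0.59) and Egr1 (0.79). Summed markers of the ciliary body, iris and smooth muscle were 73.1, 251 and 261 CPM at P30 (mice 1 to 3) and 19.7 to 91.8 CPM in the cKO mice. Pigment epithelium markers were 54.4, 323 and 285 CPM in the same P30 mice and 27.2 to 76.7 CPM in the cKO mice. Summed lens markers were 9346, 433 and 31222 CPM in P30 mice 1 to 3, where the members' share of counts was 0.404, 0.324 and 0.418%. They were 36994, 26974 and 591 CPM in P32 mice 4 to 6 and 222, 604 and 460 CPM in P34 mice 7 to 9. In P38 mice 10 to 12 they were 11603, 4578 and 4726 CPM. Within P30, P32 and P38 the lens markers and the members' share put the mice in the same order, and within P34 in the opposite order. The part of other cells' RNA in the members' values was not tested.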

How the data were processed

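Total retinal RNA of 12 mice (3 per group) was sequenced as single-end reads of 50 bases. The authors deposited whole-number read counts per Ensembl gene for each mouse. The submitters' processing notes name bcl2fastq 2.17.1.14, STAR 2.5.3a and HTSeq 0.6.1p1, and the files also count reads with no gene (6.53 to 13.7% of all reads counted), with several positions (23.7 to 32.2%) and with several genes (0.646 to 0.696%), which were left out of library sizes. All other values were computed here. Symbols were matched for 54079 of 54146 gene IDs.

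Counts were filtered with filterByExpr, scaled by TMM and tested with edgeR 4.0.16 (quasi-likelihood test, R 4.3.3) on all genes, with the 4 ages in 1 fit and all 9 cKO mice against the P30 mice in a second, and p-values were adjusted by Benjamini-Hochberg over 18628 genes. The p-values judge a difference between group means against the spread between mice. DESeq2 1.42.0, other scalings, no filter, a transcript length offset, sex as a covariate and leaving out each mouse were the alternatives. On simulated counts for P34 against P30, the test recovered 63 of 100 genes changed by 1 and 96 of 100 changed by -2 on the log2 scale. It also called 4 unchanged genes. Genes with few counts were not changed, and smaller changes were not simulated. Apart from the change at P34 the simulated libraries differed only in depth. A count of 3 corresponds to 0.0499 to 0.101 CPM.

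Members, lists and tests were chosen with earlier results of these data known. The genes named were, in each of 7 comparisons, the 2 members with the most positive and the 2 with the most negative change, the 3 highest and 3 lowest per length, paralog pairs (symbol plus l), the stalk members, Rpsa, Rps6, Rps27a and X-linked members, the 3 that varied most and the 3 that varied least relative to the family, and in each list the 2 most positive and 2 most negative genes in all 9 cKO mice. Rpl5, Rpl9, Rpl11, Rpl12, Rpl13, Rpl30, Rps10, Rps12, Rps13, Rps15a, Rps25, the copies and the list genes called by DESeq2 were named after their values were seen. Values of some genes that the rule names are not reported here.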

Additional observations from a re-analysis of the deposited data

Results flagged for a closer look

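Of 27 quantities tested over the 9 cKO mice, 13 had 1 mouse whose gap to the nearest other mouse was too large a part of the whole range by Dixon's test at the 95% level, which chance gives in about 5% of quantities (1 in 20). Some of the quantities were members chosen because they vary or differ between these mice, and they share libraries, so the 13 are a description and not a test against that rate. In 12 of the 13 this was P32 mouse 4, as the highest. For the members' share of gene counts (0.653% in mouse 4) the gap was 0.703 of the range. It was 0.716 for Rpl36, 0.640 for Rplp1, 0.764 for Rplp2, 0.583 for Rpl8, 0.504 for Rps15 and 0.624 for Rpl18. For Rps27 it was 0.630, for Rps27l 0.606, for Rps27a 0.543, for Rpsa 0.787 and for Rpl39 0.735. For Rpl29 the mouse was P34 mouse 7, at 9.19 CPM, with a gap of 0.937 of the range.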

How the results depend on the processing

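Depth limits the members with few counts, such as Rpl3l (2 to 23 counts) and Rps6 (13 to 36), and 3 mice a group limit all tests. No paired analysis was possible because the mice are numbered 1 to 12 and no number is shared between groups. By unadjusted p alone 2 members were higher at P32 against P30 (2.55% of all genes), and 9 and 5 were lower at P34 and P38 (7.06% and 3.82%). Against P32, 20 and 17 members were lower at P34 and P38 (13.3% and 10.9% of all genes). By edgeR's calling rule 0 were called in each. DESeq2 called 6 and 4 in the last 2 comparisons (1406 and 932 of all 18628 genes), and edgeR without a filter called 1 (Rpl5) at P38 against P32 (201 of 33982 genes). Leaving out 1 mouse at a time gave 0 to 13 calls at P34 and 0 to 8 at P38 against P32, the most without mouse 6 (where 2726 and 1946 of 19062 genes were called), and 0 in the other 5 comparisons. The members' median then ranged from −0.10 to 0.35 at P32, −0.29 to −0.06 at P34, −0.26 to −0.07 at P38 and −0.15 to 0.06 in all 9 cKO mice. It ranged from −0.57 to −0.032 in P34 against P32, from −0.58 to −0.061 in P38 against P32, and from −0.11 to 0.14 at P38 against P34. The log2 fold change of Rpl29 in all 9 cKO mice changed from −1.18 to 1.05 without P30 mouse 3 and to −2.19 without P34 mouse 7. With sex as a covariate, split at 100 CPM of Xist (chosen after seeing the data, since the planned limit of 1 CPM misplaced 3 males), the medians were 0.10, −0.41 and −0.35 against P30. With a transcript length offset they were 0.06, −0.13 and −0.11, and −0.21 and −0.17 at P34 and P38 against P32. Scaling by total counts moved the median of all genes to −0.11 and −0.14 at P34 and P38 against P32, and that of the members to −0.54 and −0.52. The causes were not tested.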
